A study of Mus musculus with 2 samples.

Results

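Isolated narrow wild-type-only regions are short stretches of the mouse genome that were called as carrying wild-type H2A.Z and that had no call for the K3R3 form of H2A.Z anywhere near them. They were chosen by 4 conditions on the deposited region lists: a region of the stricter wild-type list, under 1000 bp wide, on an autosome other than chromosomes 6 and 8, with no region of either K3R3 list within 10 kb. The rule selected 1606 regions, which is 1.65% of the 97146 regions of that list. They cover 344.9 kb in all. Since they were selected on the region calls themselves, their absence from the K3R3 lists is not a result, and what follows describes where they lay, how wide they were, how they fell relative to each other and how many regions surrounded them.

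H2A.Z is a variant of the core histone H2A that replaces it in a subset of nucleosomes, above all at the starts of genes and at enhancers. In mouse embryonic stem cells it is also found at the silent promoters of developmental genes that Polycomb complexes occupy. Lysines near its C-terminal end can carry a single ubiquitin, a modification associated with silent chromatin. In the K3R3 form 3 of these lysines (K119, K120 and K123) are replaced by arginine, so that those acceptor sites for ubiquitin are missing.

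The study compared chromatin immunoprecipitation followed by sequencing of tagged wild-type H2A.Z with that of tagged K3R3 in mouse embryonic stem cells, with 1 library for each. Both groups carried a lentiviral transgene under a doxycycline-inducible CMV promoter, fused to yellow fluorescent protein, induced with 1 µg/ml doxycycline in a line with the reverse transactivator, together with hairpins against the endogenous transcript. Cells had been sorted for the fluorescent tag and passaged a last time without feeder fibroblasts, and tagged chromatin was precipitated with an antibody against green fluorescent protein (Abcam ab290). The strain is labelled V6.5, a male line from a cross of 129SvJae and C57BL/6, while the protocol also speaks of KH2 cells, so the parental line is not settled by the labels. All values therefore concern an added, tagged histone and not the endogenous one, and the cells' identity could not be checked against marker genes, since no region was assigned to a gene here.

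Each library came with a looser and a stricter list, named for thresholds of 1e-09 and 1e-12. The wild-type lists held 99812 and 97146 regions, and the K3R3 lists 114028 and 110435. Every coordinate fell on a 25-bp grid, the smallest region was 25 bp wide, and the smallest gap between neighbours was 225 bp. The lists give positions but no read counts, so the depth of the libraries is unknown and regions carry no height. With 1 library per group there is no replicate error and no test was possible. Intervals below are 95% intervals (Wilson for shares, exact Poisson for rates per Mb, exact binomial order statistics for medians). They express counting error alone, as if each region were independent of its neighbours. Differences between classes of regions are given as descriptions and were not tested.

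On the 17 autosomes used, 71454 stricter wild-type regions were under 1000 bp wide. A K3R3 region overlapped 61944 of them (86.7%), and another 7904 (11.1%) had a K3R3 region within 10 kb without touching it. The isolated regions were the remaining 2.25% (interval 2.14% to 2.36%). Of the 9232 wild-type regions that were 1000 bp or wider, 31 had no K3R3 region within 10 kb, which is 0.336% (0.237% to 0.476%). The same rule with the libraries exchanged gave 5322 isolated K3R3-only regions among 88062 narrow K3R3 regions, or 6.04% (5.89% to 6.20%). Narrow regions with no region of the other library within 10 kb were thus 3.31 times as many in the K3R3 library (3.13 to 3.504). The K3R3 lists were also longer. With chromosomes 6 and 8 included the ratio was 2.20. Depth and the number of regions called cannot be told apart from the histone form here.

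The limits of the rule cut through a continuous range of values. There were 20 isolated regions 900 to 975 bp wide, 4 of them at 975 bp, and 11 regions that met every other condition were 1000 to 1075 bp wide. At the distance limit, 73 isolated regions had their nearest K3R3 region over 10000 and up to 10500 bp away, and 75 narrow regions just outside the rule had it at over 9500 and up to 10000 bp. With the distance set at 5 or 20 kb the rule would have selected 2877 or 795 regions, and with chromosomes 6 and 8 included 2477.

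Isolated regions were present on all 17 chromosomes, and the order of the chromosomes depended on what they were counted against. Chromosomes 2 and 1 held the most, with 158 and 145, and chromosome 16 the fewest, with 49. As a share of a chromosome's own narrow wild-type regions they were most frequent on chromosome 3, at 3.68% (131 of 3563, interval 3.11% to 4.35%), and least frequent on chromosome 11, at 1.58% (101 of 6412, 1.30% to 1.91%). The interval of chromosome 3 overlaps those of chromosomes 1, 10, 13 and 14, whose shares lay between 2.71% and 2.86%, and lies above those of all the others.

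Counted per Mb of sequence that lay over 10 kb from any K3R3 region, the only sequence in which such a region could occur, the order changed. That sequence made up 1265.8 of 2137.6 Mb, or 59.2%, and held 1.27 isolated regions per Mb. Chromosome 11 was then the highest, at 1.80 per Mb (1.47 to 2.19), followed by chromosome 19 at 1.71. Chromosome 16 was the lowest, at 0.821 (0.608 to 1.09). Chromosome 11 carried 54.0 narrow wild-type regions per Mb of its length and chromosome 3 carried 22.8, so the isolated regions of chromosome 11 were a small share of a large number. On each of the 17 chromosomes used, the mirrored rule found more regions in the K3R3 library. On the excluded chromosomes 6 and 8 the reverse held, as given further below. The excess was smallest on chromosome 19 and on chromosome 2, at 2.49 times on each, and largest on chromosome 18, at 5.04 times (3.73 to 6.82). The median width of isolated regions lay between 125 and 225 bp on each chromosome, with the highest value on chromosome 11.

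**Figure D1:**
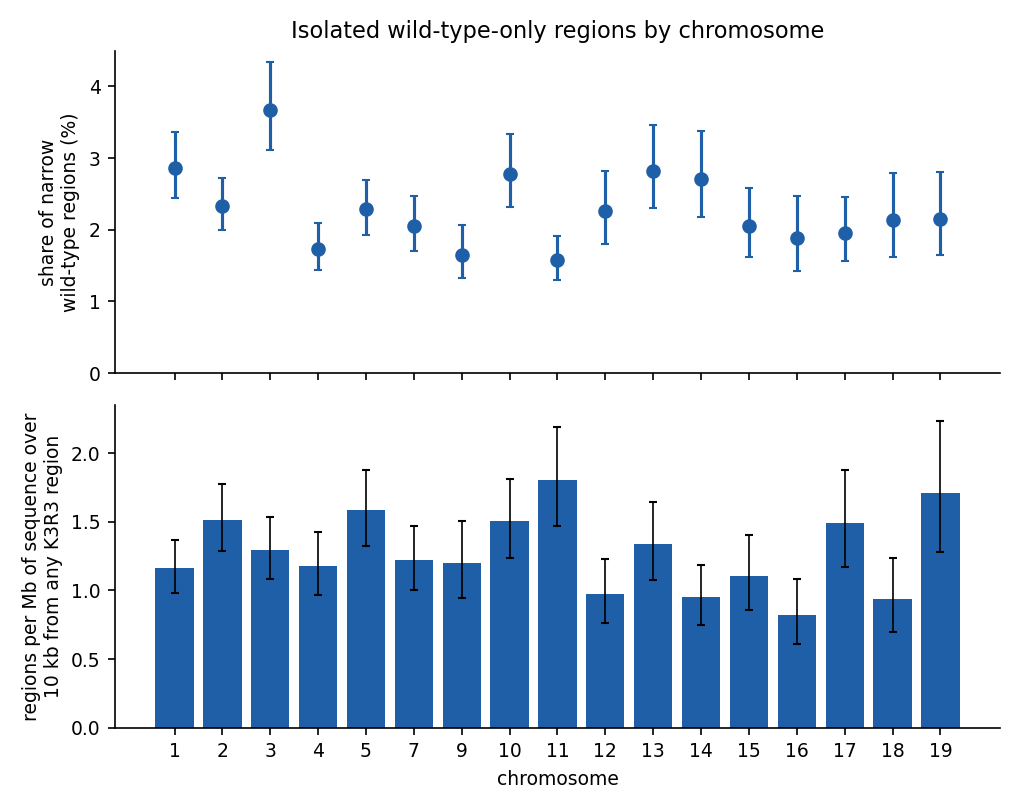
Isolated wild-type-only regions on each of the 17 chromosomes used, as a percentage of the chromosome's narrow wild-type regions (top, points with Wilson intervals) and per Mb of sequence over 10 kb from any K3R3 region (bottom, bars with Poisson intervals). Chromosome 3 has the highest share, at 3.68%, while chromosome 11 has the lowest share and the highest rate, at 1.80 per Mb.

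Along the chromosomes the same reversal appeared between share and rate. When each chromosome was divided into 10 equal parts from the low-coordinate end, which in the mouse is the centromeric end, the isolated regions were 3.21% of narrow wild-type regions in the first part (2.73% to 3.76%) and 1.70% in the tenth (1.48% to 1.95%). Per Mb of K3R3-free sequence they went from 0.999 (0.842 to 1.18) to 2.09 (1.81 to 2.40) over the same parts. Their number per part ranged from 141 to 199, with the largest number in the distal part. Narrow wild-type regions as a whole numbered 4461 in the first part and 11720 in the tenth. The distal ends thus held the most isolated regions, and an even larger number of regions that were not isolated.

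The isolated regions were narrow within a class already limited to narrow regions. Their median width was 150 bp (150 to 175), with quartiles at 75 and 275 bp, and 95 in 100 were at most 675 bp wide. Narrow wild-type regions that overlapped K3R3 had a median of 300 bp, and those with K3R3 nearby but not overlapping had 175 bp. The smallest possible width, 25 bp, was the most frequent single width and accounted for 251 isolated regions, or 15.6% (13.9% to 17.5%). That width accounted for 12.8% of the regions with K3R3 nearby and 2.79% of the overlapping ones. A region of 25 bp, the smallest step of the grid, is shorter than the DNA wrapped around a nucleosome.

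Past 200 bp isolated regions became fewer with increasing width. There were 178 of 500 bp or more, which is 11.1% (9.64% to 12.7%), against 26.3% of the overlapping narrow regions and 11.6% of those with K3R3 nearby. Isolated K3R3-only regions had the same median of 150 bp but a tighter spread, with quartiles at 100 and 225 bp. Of those, 8.89% were 25 bp wide (8.15% to 9.68%) and 4.49% were 500 bp or wider (3.97% to 5.08%). The isolated wild-type regions therefore included larger shares of both the narrowest and the widest regions than their K3R3 counterparts, by intervals that do not overlap.

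**Figure D2:**
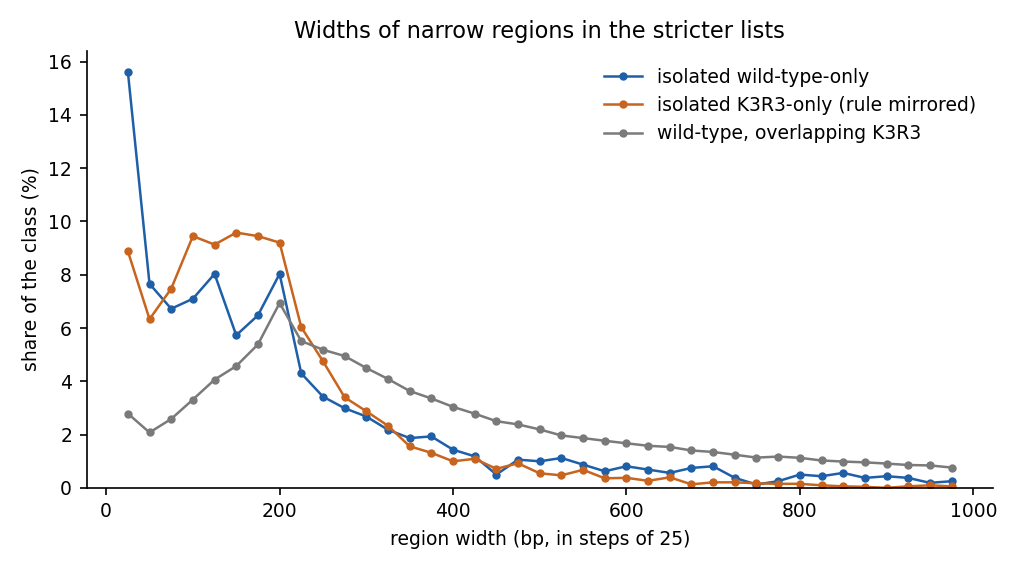
Share of each class (percent, vertical axis) at each region width in steps of 25 bp (horizontal axis) for isolated wild-type-only regions, isolated K3R3-only regions and narrow wild-type regions that overlap K3R3. The isolated wild-type regions peak at 25 bp, with 15.6%, and the overlapping regions extend to larger widths, with 26.3% at 500 bp or more.

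The widest isolated regions were 4 of 975 bp, all of them in the looser wild-type list too: chr2:144096001-144096975, chr2:166501426-166502400, chr9:72832976-72833950 and chr10:75993726-75994700. The nearest K3R3 region lay 14325, 15400, 26100 and 30175 bp away from them, in that order. Another 3 were 950 bp wide, of which the first in chromosome order, chr3:90035201-90036150, lay 10250 bp from K3R3, close to the limit of the rule. In the looser list these 5 named regions measured 1000, 1000, 1025, 1025 and 1025 bp, at or past the width limit, while 1 of the 3 regions of 950 bp stayed under it there. The named regions' surrounding megabases held between 42 and 141 other stricter wild-type regions.

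The looser list of the wild-type library did not enter the rule and offers another reading of the same reads. It is not a replicate, and it did not contain the whole of the stricter list. A looser region overlapped 1297 of the 1606 isolated regions, or 80.8% (78.8% to 82.6%). The share was 95.5% among narrow wild-type regions that overlapped K3R3, 75.7% among those with K3R3 nearby, and 86.5% among isolated K3R3-only regions in their own looser list. The interval of the isolated regions lies below the share of the regions that overlapped K3R3.

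Width and presence in the looser list went together. Of the isolated regions 25 bp wide, 165 of 251 (65.7%, 59.7% to 71.3%) overlapped a looser region. From 50 to 475 bp the share stayed between 80.1% and 84.0% in the 4 width classes examined. At 500 bp or more it was 93.8% (167 of 178, 89.3% to 96.5%). The 309 isolated regions that were missing from the looser list had a median width of 125 bp, and 27.8% of them were 25 bp wide. Among the 1297 that were present, the looser region was wider in 1097 and equal in 200, with a median of 200 bp against 175 bp. None was narrower. The 165 regions of 25 bp that had a looser counterpart measured 100 bp there at the median. By chromosome, the share in the looser list ranged from 72.0% on chromosome 18 to 85.7% on chromosome 16.

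Most isolated regions stood alone, and those that did not were often very close together. The distance from an isolated region to the next one was 304575 bp at the median (274075 to 340300), with quartiles at 61906 and 823125 bp and a maximum of 5617200 bp. Another isolated region lay within 10 kb of 201 of them, or 12.5% (11.0% to 14.2%), and within 1 Mb of 1291, or 80.4%. Within 1 kb there was another for 91, or 5.67%. For the more numerous isolated K3R3-only regions the median distance was 78725 bp, and 22.1% had another within 10 kb.

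Any stricter wild-type region, isolated or not, lay within 10 kb of 262 isolated regions (16.3%, 14.6% to 18.2%). For 201 of these 262 it was another isolated region, and for 61 it was only a region that failed the rule. The share was 78.7% among narrow regions overlapping K3R3 and 92.9% among those with K3R3 nearby. The rule bears on this measure: since nearly all wild-type regions lie near a K3R3 region, keeping only regions over 10 kb from K3R3 also removes most wild-type neighbours. At the far end, 225 isolated regions (14.0%) had no other region of any of the 4 lists within 50 kb, and 82 (5.11%) had none within 100 kb.

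Joined into runs in which neighbours were at most 10 kb apart, the 1606 isolated regions formed 1405 single regions, 78 pairs, 11 runs of 3 and 3 runs of 4. The 109 gaps inside these runs had a median of 1650 bp. Of these gaps, 46 (42.2%) were under 1 kb, 24 of them under 500 bp, while 32 were from 1 to 5 kb and 31 were longer. Separate sites and a single stretch of signal divided by the caller cannot be told apart from the lists. When regions of a list within 1000 bp of each other were first joined, 6.99% of isolated regions had another within 10 kb. K3R3-only regions formed runs of up to 6.

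The longest run was on chromosome 3 and spanned 14725 bp, chr3:101202051-101216775. Its 4 regions were 350, 200, 25 and 100 bp wide, the first of them missing from the looser list, and the nearest K3R3 region lay 12600 bp from the run. The next, chr7:30256426-30269725, spanned 13300 bp with regions of 200, 225, 100 and 825 bp. All 4 were in the looser list, and no K3R3 region lay within 33450 bp of the run. The third by length, chr17:56947726-56959550, held 3 regions in 11825 bp. The remaining run of 4, chr19:23100201-23111725, was slightly shorter at 11525 bp and had widths of 25, 200, 175 and 250 bp. The chromosome 7 run stood farther from K3R3 than the other runs of 4, by more than 20 kb.

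To describe the spacing over longer distances, the rate of isolated regions at a given distance from another one was divided by their mean rate over all K3R3-free sequence, with distances taken between midpoints. Within 1 kb the rate was 19.98 times the mean, from 40 pairs of regions. It was 5.45 times the mean from 1 to 10 kb (81 pairs), 2.90 times from 10 to 50 kb and 1.99 times from 50 to 100 kb. From 100 to 500 kb it was 1.55 times, from 500 to 1000 kb 1.28 times, and from 1000 to 5000 kb 1.08 times. The mean rate itself was uneven along the genome, from 0.408 to 5.46 per Mb between groups of bins poor and rich in shared regions. The rates within 1 kb and from 1 to 10 kb, 25.3 and 6.91 per Mb, lay above these group averages. Single bins can lie above the averages too, so the comparison does not settle what the unevenness contributes. How far this unevenness accounts for the values above 1 was not tested. The corresponding values for isolated K3R3-only regions were 6.35 and 4.21 within 1 kb and from 1 to 10 kb, and 1.505 and 1.28 from 100 to 500 and from 500 to 1000 kb. Beyond 100 kb the curves of the libraries nearly coincided. In absolute terms the rates were 25.3 per Mb in wild type and 25.01 in K3R3 within 1 kb, 6.91 and 16.6 from 1 to 10 kb, and 1.97 and 5.93 from 100 to 500 kb, so that they were close within 1 kb and higher in K3R3 at the longer distances.

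**Figure D3:**
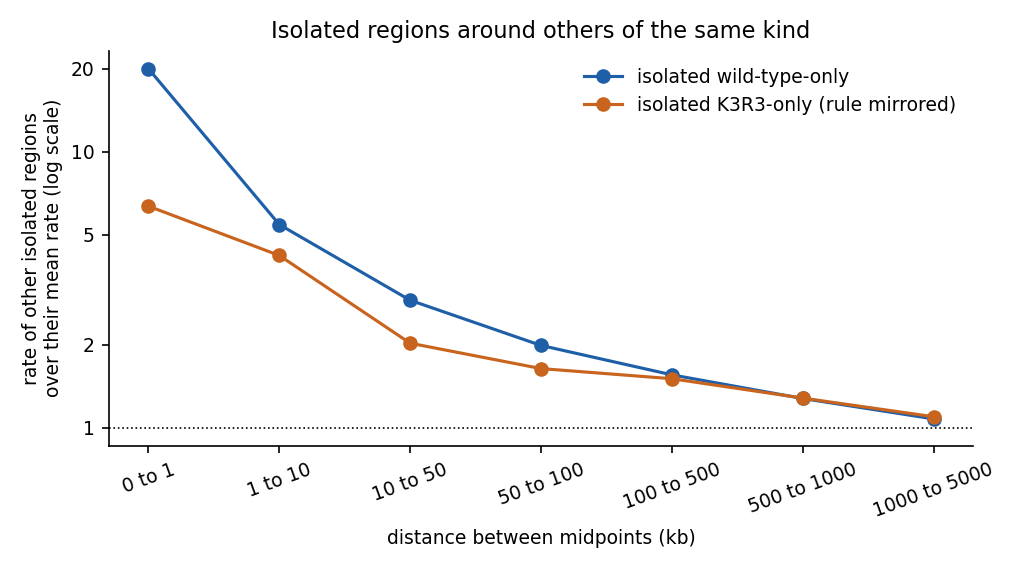
Rate of isolated regions at increasing distance from another isolated region of the same library, divided by their mean rate in sequence over 10 kb from the other library (vertical axis, log scale), against the distance between midpoints in kb (horizontal axis). Both libraries fall towards the mean rate (dotted line), from 19.98 times the mean within 1 kb to 1.08 times at 1000 to 5000 kb in wild type.

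In fixed bins of 1 Mb, 991 of 2149 bins (46.1%) held at least 1 isolated region. There were 594 bins with 1, 255 with 2, 95 with 3 and 47 with more, up to 8. Of the 991 bins, 823 (83.0%) also held an isolated K3R3-only region, and these 823 were 47.8% of the 1723 bins with such a region. Over all 2149 bins, 80.2% held an isolated K3R3-only region and 46.1% an isolated wild-type one, so both shares lay close to those over all bins.

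The bin with the most isolated regions was from 30 to 31 Mb of chromosome 7, with 8. Their widths ran from 100 to 825 bp, their median width was 350 bp, and all 8 were in the looser list. The bin held 75 stricter wild-type regions in all, 71 stricter K3R3 regions and 3 isolated K3R3-only regions, and it contains the chromosome 7 run described above. The bin from 153 to 154 Mb of chromosome 1 held 7, from 25 to 650 bp wide, 5 of them in the looser list, among 38 stricter regions of each library. Its 3 regions of 25 bp measured 125, 125 and 325 bp in the looser list. There were 8 bins with 6 isolated regions, and the one named here by the lowest chromosome number is from 5 to 6 Mb of chromosome 2, whose 6 are all in the looser list and from 25 to 250 bp wide. That bin had 35 stricter wild-type and 25 stricter K3R3 regions, and 1 isolated region in it was 128275 bp from the nearest K3R3 region. The stricter wild-type list was as long as the K3R3 list or longer in 4 of the 8 bins with 6 isolated regions, and in 382 of all 2149 bins. Those 8 bins were picked for their many wild-type regions without K3R3 nearby, so their balance is not independent of the choice.

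The megabase around an isolated region was less dense in regions than that around other narrow wild-type regions, and it was far from empty. Within 500 kb on either side there were 39 other stricter wild-type regions at the median (36 to 41), with quartiles at 19 and 72 and a range from 0 to 216. Around narrow regions that overlapped K3R3 the median was 73, and around those with K3R3 nearby it was 91. The rule bears on this contrast: it keeps only regions over 10 kb from K3R3, and nearly all wild-type regions lie near K3R3. A lower count around isolated regions is therefore partly built into their selection. Around isolated K3R3-only regions the median was 31 stricter wild-type regions. For them that is the list of the other library, which the mirrored rule empties within 10 kb. Counted in their own stricter list, with the region itself left out, the median was 41 (40 to 42). The spread was wide in every class, and the distributions overlapped over most of their range.

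K3R3 regions were also common around the isolated wild-type regions. The median number of stricter K3R3 regions in the same megabase was 48 and of looser ones 51, and leaving out the 20 kb that the rule empties did not change the median of 51. K3R3 regions outnumbered wild-type regions around 1346 isolated regions (83.8%), and wild-type regions outnumbered K3R3 around 153. Wild-type regions numbered 0.845 times the K3R3 regions at the median. The K3R3 list was also the longer one over all the chromosomes used, where the ratio was 0.831 (80686 against 97115 regions). With the region itself counted, K3R3 regions were the more numerous around 76.8% of isolated regions (74.6% to 78.8%) and around 90.6% of the narrow regions that overlapped K3R3, with median ratios of 0.875 and 0.843. At the extremes, 201 isolated regions (12.5%) had under 10 stricter wild-type regions around them and 231 (14.4%) had 100 or more.

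**Figure D4:**
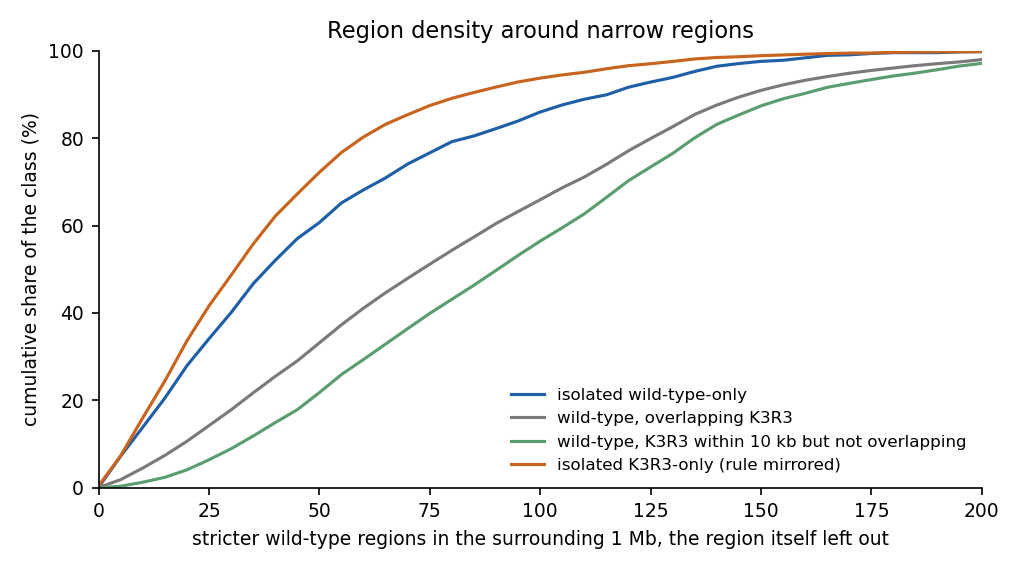
Cumulative share of each class of narrow regions (percent, vertical axis) by the number of other stricter wild-type regions within the surrounding 1 Mb (horizontal axis). The curve of isolated wild-type-only regions, with a median of 39, lies between isolated K3R3-only regions (31) and regions overlapping K3R3 (73), and regions with K3R3 within 10 kb reach the highest counts (91). For isolated K3R3-only regions the wild-type list is that of the other library, which the mirrored rule empties within 10 kb.

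Isolated regions in rich and poor surroundings differed in width and in clustering. Below the lower quartile, with at most 19 wild-type regions in the megabase (429 regions), the median width was 100 bp, 24.2% were 25 bp wide (20.4% to 28.5%) and 3.03% reached 500 bp. Above the upper quartile, with 72 or more (409 regions), the median width was 225 bp, 8.80% were 25 bp wide (6.43% to 11.9%) and 20.5% reached 500 bp. Another isolated region lay within 10 kb of 3.73% of the former and 28.1% of the latter. Such a neighbour is itself counted in the megabase, so this difference is partly built into the grouping. Presence in the looser list did not follow this order, at 82.8% (78.9% to 86.0%) and 79.7% (75.5% to 83.3%), with intervals that overlap. The median distance to K3R3 was 44650 bp in the poor surroundings and 15150 bp in the rich ones. That distance is not independent of the grouping either, since nearly all wild-type regions lie near K3R3.

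The same relation, in the same regions, can be read from the width. The 178 isolated regions of 500 bp or more had a median of 69.5 other wild-type regions in their megabase, and the 251 of 25 bp had 27. The isolated regions of dense megabases thus resembled the bulk of narrow regions more closely, in width, than those of sparse megabases did. Among isolated K3R3-only regions the same division, made on their own stricter list, gave smaller differences in width. Medians were 150 and 175 bp, and 3.34% and 7.35% reached 500 bp. Their clustering also differed, under the same limit, with another such region within 10 kb of 9.50% in poor and 33.0% in rich surroundings.

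The 3 isolated regions in the richest surroundings were chr15:78773076-78773325 (250 bp), chr11:118130001-118130125 (125 bp) and chr7:52135951-52135975 (25 bp). Their megabases held 216, 209 and 207 other stricter wild-type regions and 243, 278 and 194 stricter K3R3 regions. All of them were in the looser list, and the nearest K3R3 region was 13925, 10325 and 11200 bp away. In the poorest surroundings, with no other stricter wild-type region in the megabase, were chr1:110273501-110273650 (150 bp) and chr3:76957676-76957700 (25 bp), with 2 and 0 stricter K3R3 regions around them. Another 15 isolated regions had 1 other stricter wild-type region around them, and 13 of these 15 were in the looser list. The first of the 15 in chromosome order, chr1:68605451-68605475 (25 bp), was not, and had 2 stricter K3R3 regions in its megabase. The chromosome 3 region lay 408925 bp from any K3R3 region, the largest distance among the 1606, and its nearest neighbour in any list was a looser wild-type region 46925 bp away.

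The 5 isolated regions farthest from any other region of the 4 lists lay over 250 kb from their nearest neighbour. They were chr2:82347401-82347425, at 303550 bp, chr17:19240851-19240875, at 303025 bp, chr3:20831001-20831375, at 291600 bp, chr5:49281176-49281250, at 283425 bp, and chr2:8708126-8708150, at 255850 bp. Of them, 3 were 25 bp wide, the others 375 and 75 bp. All but the first were in the looser list, where the last measured 200 bp. Their megabases held 1 to 5 other stricter wild-type regions and 2 to 6 stricter K3R3 regions.

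Narrow wild-type regions became steadily rarer with distance from K3R3, and the limit of 10 kb does not mark a break in that decline. Regions were counted by midpoint, and those whose midpoint fell inside a region of the other library were left out. Up to 1 kb from a K3R3 region there were 24.1 narrow wild-type regions per Mb, and from 1 to 2 kb 12.4. From 2 to 5 kb there were 7.68 and from 5 to 10 kb 4.95. Past the limit there were 2.67 per Mb (2.49 to 2.86) from 10 to 20 kb and 1.28 (1.17 to 1.40) from 20 to 50 kb. From 50 to 100 kb there were 0.700 (0.601 to 0.810), and at over 100 kb 0.336 (0.273 to 0.409). The K3R3 library declined in parallel with distance from wild-type regions, from 53.6 to 1.14 per Mb. The isolated regions therefore form the tail of a gradient present on either side of the comparison.

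**Figure D5:**
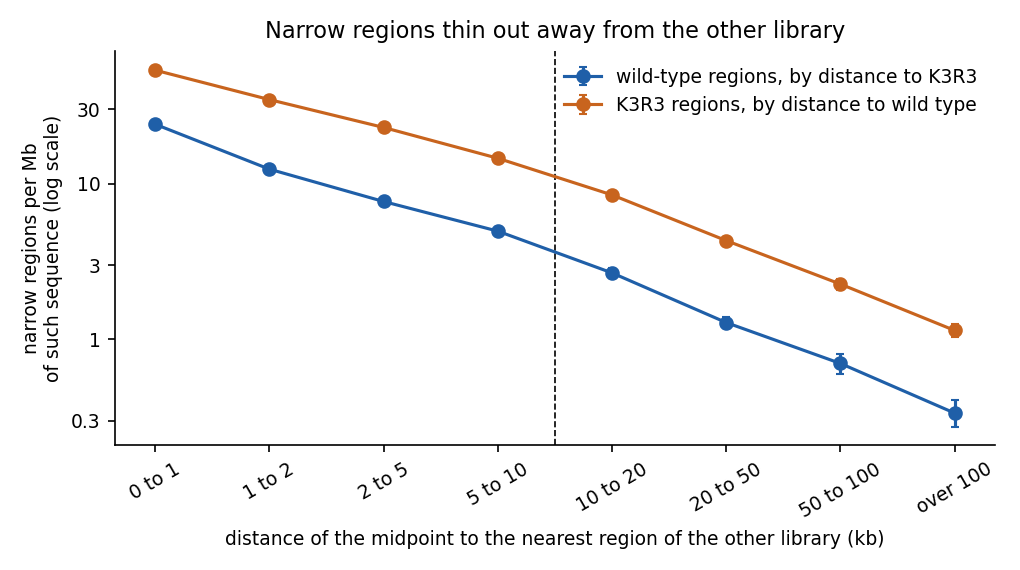
Narrow regions per Mb of sequence (vertical axis, log scale) at increasing distance of their midpoint from the nearest region of the other library in kb (horizontal axis), with exact Poisson intervals. Regions whose midpoint fell inside a region of the other library are left out. The dashed line marks the 10 kb limit, across which wild-type regions pass from 4.95 to 2.67 per Mb without a step.

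About 1 in 2 isolated regions lay just past the limit. There were 811 (50.5%) at 10 to 20 kb from K3R3, 519 (32.3%) at 20 to 50 kb and 276 (17.2%) farther away. The median distance was 19912.5 bp. Width was smaller farther from K3R3, with medians of 175 bp (175 to 200), 150 bp (125 to 175) and 100 bp (100 to 125). The share of 25-bp regions was 14.7%, 14.1% and 21.4%, and the share of 500 bp or more 13.4%, 10.4% and 5.43%. Presence in the looser list was 79.2%, 80.9% and 85.1%, so this share was not lower in the most remote regions, although they were narrower.

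Seen from the K3R3 side, 20829 stretches of over 20 kb without any K3R3 region lay between K3R3 regions, and 1394 of them (6.69%) held at least 1 isolated wild-type region. Longer stretches held one more often, from 3.91% at 20 to 50 kb through 8.61% at 50 to 100 kb and 10.9% at 100 to 200 kb to 20.7% at over 500 kb. Per Mb available for isolated regions the order was the opposite, from 3.83 (3.502 to 4.18) in the shortest stretches to 0.317 (0.248 to 0.400) in the longest. The most in any stretch was 6. For stretches free of wild-type regions the share that held an isolated K3R3-only region was 19.5%.

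The excess of K3R3-only over wild-type-only regions was not the same in all surroundings. Megabase bins were grouped by how many stricter wild-type regions that overlapped K3R3 they held. In the 692 bins with 0 to 9 such shared regions there were 244 isolated wild-type and 903 isolated K3R3 regions, a ratio of rates per Mb of 3.59 (3.12 to 4.13). The ratio was 3.57 in bins with 10 to 19, 3.26 with 20 to 39 and 3.02 (2.70 to 3.38) with 40 to 79. In the 257 bins with 80 or more there were 272 and 489, a ratio of 1.66 (1.43 to 1.93), which lies below the intervals of the other 4 groups.

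Isolated wild-type regions were thus closest in number to their K3R3 counterparts in the bins richest in shared regions. Their own rate went through these groups from 0.408 per Mb of K3R3-free sequence (0.359 to 0.463) through 1.05, 1.91 and 2.85 to 5.46 (4.83 to 6.15). The rate of isolated K3R3 regions went from 1.47 to 8.61 in the first 4 groups and was 9.07 in the last. As a share of narrow wild-type regions the isolated regions went the other way, from 8.15% in the poorest bins to 0.968% in the richest. Whether depth, calling or the histone form accounts for these differences was not tested.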

How the data were processed

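The analysis used 4 lists of regions, 2 for each of 2 libraries. Reads had been aligned with Bowtie 0.12.3 and handled with bedtools on the mouse build mm9, per the submitters' processing notes. Not given in the sources used here are the peak caller, its control, its filters and the read depth. Track lines carry the tag LSWCE, which is not explained. The deposited lists hold start and end positions only, with the thresholds 1e-09 and 1e-12 per the file headers. Coordinates are printed 1-based in mm9.

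Regions were compared with Python 3.11.15, numpy 2.4.6, pandas 2.3.3 and scipy 1.17.1, and plotted with matplotlib 3.10.9. Gaps were counted in bp between region edges. The surrounding megabase ran 500 kb to either side of the midpoint, with the region itself left out. Each group has 1 library, so no test was made. The selection was checked on simulated data, where 200 of 200 planted regions among 83643 were returned and 400 planted others were not. All 80686 distances to K3R3 equalled those from bedtools 2.31.1.

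The members, the classes and the alternatives were chosen with earlier results of these data known. Regions were named by rule: the 5 widest, the 5 farthest from any other region, the 3 longest runs, the 3 bins of 1 Mb with the most, the 3 in the richest and the 3 in the poorest surroundings, and the extreme chromosomes, with ties given to the lower chromosome and then the lower start. The third run of 4 was added after its values were seen. Chromosomes 6, 8, X and Y stayed outside the rule. Gene and sequence content was not analysed here, because the reference tables at hand are of another build.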

Additional observations from a re-analysis of the deposited data

How the results depend on the processing

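The number of isolated regions (1606), their share of narrow wild-type regions (2.25%), median width (150 bp), share with another within 10 kb (12.5%), median count of wild-type regions in the megabase (39) and the K3R3 to wild-type ratio (3.31) were recomputed, in that order, with 1 choice changed at a time. What lies behind the changes was not tested. Each share was taken over the narrow regions of the list, width limit and chromosomes in use. With a distance of 5 kb they were 2877, 4.03%, 175 bp, 15.7%, 53 and 3.08, and with 20 kb 795, 1.11%, 125 bp, 9.81%, 25 and 3.54. With all autosomes they were 2477, 2.92%, 150 bp, 15.9%, 42 and 2.20. For the other settings, the number is given where the selection changed, and further values only where they lay outside the main interval. With the looser list of the other library alone, the number was 2094, the share 2.93%, the clustered share 16.8%, the megabase count 42 and the ratio 2.88. With its stricter list alone, the number was 2343, the share 3.28% and the ratio 2.98. Taking the looser list of the library itself gave 2130 regions, a share of 2.96% and a megabase count of 34. Requiring presence in both of its lists gave 1297 regions, a share of 1.82% and a ratio of 3.55. A width limit of 500 bp gave 1428 regions, a share of 2.64%, a width of 125 bp, a clustered share of 10.6% and a ratio of 3.56. With no limit there were 1637, or 2.03% of the wild-type regions of any width. Joining regions within 1000 bp gave 1530 regions, a share of 3.04%, a clustered share of 6.99% and a megabase count of 33. Counting neighbours within 50 kb gave a clustered share of 22.6%, and a window of 500 kb gave a count of 19. Leaving out regions of 25 bp, chosen after seeing the data, gave 1355 regions, a share of 1.98%, a width of 200 bp and a ratio of 3.58. The ratio stayed above 1 under every alternative run. None of these took chromosomes 6 and 8 alone, where isolated wild-type-only regions outnumbered K3R3-only ones. No paired analysis was possible because there was a single library per group, and no replicate could be left out. The planned gene and sequence features were not run, for want of an mm9 reference. Unknown depth limits every count.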

Other observations

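On chromosomes 6 and 8, which the rule leaves out, the balance between the libraries was the reverse of that on the other autosomes. On the X chromosome, also left out, isolated K3R3-only regions were again the more numerous. On chromosome 6, 474 of 6625 narrow wild-type regions (7.15%, 6.56% to 7.80%) had no K3R3 region within 10 kb, against 70 of 5193 narrow K3R3 regions (1.35%, 1.07% to 1.70%) with no wild-type region. On chromosome 8 the values were 397 of 6648 (5.97%) and 66 of 5390 (1.22%). On the X chromosome they were 57 of 1240 (4.60%) and 148 of 1492 (9.92%). The median width of the isolated wild-type regions was 150 bp on chromosomes 6 and 8, as on the other autosomes, and 125 bp on the X.

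Applied to the looser wild-type list, the same conditions selected 2130 of 72051 narrow regions (2.96%, 2.84% to 3.08%). Of these, 852 overlapped no region of the stricter wild-type list. Their median width was 50 bp, against 200 bp for the remainder.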
